A study of Mus musculus with 23 samples.

Results

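This report compares differentiated cells of the small-intestinal villus with the Lgr5-positive stem cells (ISC) from which they arise, gene by gene and grouped by cellular function. The comparison covers every named gene that the authors' deposited table lists with a valid test, 13007 of 22517 named genes. The villus group was epithelium from mice of genotype EedF/F; Cre-, in which the gene for the Polycomb subunit Eed carries loxP sites but no Cre recombinase is present. The ISC group was sorted from mice of genotype Eed+/+; Lgr5-EGFP-IRES-CREERT2, a knock-in reporter at Lgr5 that also encodes an inducible Cre. Both groups were adult mice of a mixed B6;129 background, received 1 to 2 mg of tamoxifen on 5 days, and gave the proximal part of the intestine. Each group has 3 libraries that the labels call biological replicates. The labels do not give sex or exact age.

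Villus epithelium was released with 5 mM EDTA over 45 min and frozen in TRIzol, and its protocol mentions no step that removes crypts. Crypts were released the same way after the villi had been scraped off, were then digested with TrypLE for 45 min at 37 °C, and cells with high GFP were sorted by flow cytometry. Cell type, genotype, digestion and sorting therefore differ together between the groups and cannot be told apart. RNA was read as 75 bp single-end reads from libraries that do not mark strand. The table holds 1 RPKM value per gene and group (reads per kilobase of transcript, scaled to the mapped reads of a library). No value per library can therefore be shown, the spread among the libraries is not known, and neither is their depth. A gene was called higher in a group where the q-value in the authors' deposited table was at or below 0.05, and that q is the only measure of error here. Each statement below that a gene was higher or lower rests on such a call, the RPKM values are the authors', and folds are ratios of them.

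The lining of the small intestine renews itself within days. Stem cells at the crypt base divide, their daughters multiply for a few rounds, and most then leave the cell cycle and become enterocytes, the absorptive cells that carry a brush border of microvilli. Enterocytes digest food at their surface, take up sugars, amino acids, fat and minerals, and pack dietary fat into lipoproteins. Goblet, Paneth, enteroendocrine and tuft cells arise from the same stem cells in smaller numbers.

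The q rule called 3973 genes higher in villus, 30.5% of those tested, and 4201 higher in ISC, 32.3%, so that 62.8% of tested genes were called in either direction. The counts below are read against these shares. Large differences were more often toward villus: 769 called genes were at least 10-fold higher there and 319 in ISC, counting genes listed at 0 in the other group. Of 9818 genes that reached 1 RPKM in villus and in ISC, 3390 were within 1.5-fold of each other, 34.5%. The median difference of log2(RPKM + 1) over all tested genes, villus minus ISC, was -0.06. The summed RPKM of tested genes was 1.33 times higher in villus. Scaling both groups to the same sum was applied as a shift of every log2 difference by -0.42. Genes without a valid test are in neither this sum nor the shares of it given below. Among them Defa24, Lyz1 and Eef1a1 stood at 4334, 1021 and 1520 RPKM in villus and were listed at 0 in ISC. Their test status was HIDATA rather than OK, so this 0 can be a failed estimate and does not show absence from ISC. How far leaving such genes out altered the ratio of 1.33, the scaling and the shares was not tested. Between bulk samples, a difference in the RPKM of a gene cannot tell fewer cells of a type from less RNA per cell.

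The markers of both labelled cell types were found. All 15 stem cell markers were higher in ISC and all 14 enterocyte markers were higher in villus. Tnfrsf19, a receptor of crypt-base cells, stood at 6.81 RPKM in ISC and 0.224 in villus, and Lct, the lactase of the brush border, at 381 RPKM in villus and 5.1 in ISC. Markers of other cell types were present in both groups. Of 6 goblet markers 3 were higher in villus and none in ISC, with sums of 12324 RPKM in villus and 2691 RPKM in ISC. All 4 tuft markers were higher in villus, and of 7 enteroendocrine markers 3 were higher in each group. The 17 tested Paneth cell genes held 6.3% of the summed RPKM in ISC and 0.809% in villus, and 16 of them were higher in ISC. Of 27 tested leukocyte genes 18 were higher in villus. The 27 summed to 385 RPKM in villus and 286 RPKM in ISC, none of them listed at 0. These sums were nearly equal shares of the summed RPKM, 0.0659% in villus and 0.0652% in ISC. The pan-leukocyte gene Ptprc, chosen after its values were seen, stood at 3.30 RPKM in villus and 0.610 RPKM in ISC. The 6 tested mesenchymal, endothelial and glial genes, of 30 listed, summed to 5.01 RPKM in villus and 13.6 RPKM in ISC. Of 38 tested genes that respond within minutes to stimulation or cell dissociation, 25 were higher in ISC and 5 in villus. The Y-linked gene Eif2s3y stood at 20.2 RPKM in villus and was listed at 0 in ISC, so sex may also differ between the groups, and then cannot be told apart from cell type. The part of these differences in the results below was not tested beyond the values given beside them.

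Functions were described with 67 lists, which together hold 2919 tested genes of 3060 found in the table. Each list is given by the number of its tested members called in each direction and by its median difference of log2(RPKM + 1), villus minus ISC, where a negative value means a higher level in ISC. The medians of these 67 lists ran from -2.01 for nucleotide synthesis to 3.37 for triglyceride and lipoprotein assembly. Of 215 tested genes of the genome theme 177 were higher in ISC and 8 in villus, and of 629 gene expression genes 435 and 16. Of 133 membrane traffic genes 103 were higher in villus and 14 in ISC, and of 648 metabolism genes 396 and 107.

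**Figure D1:**
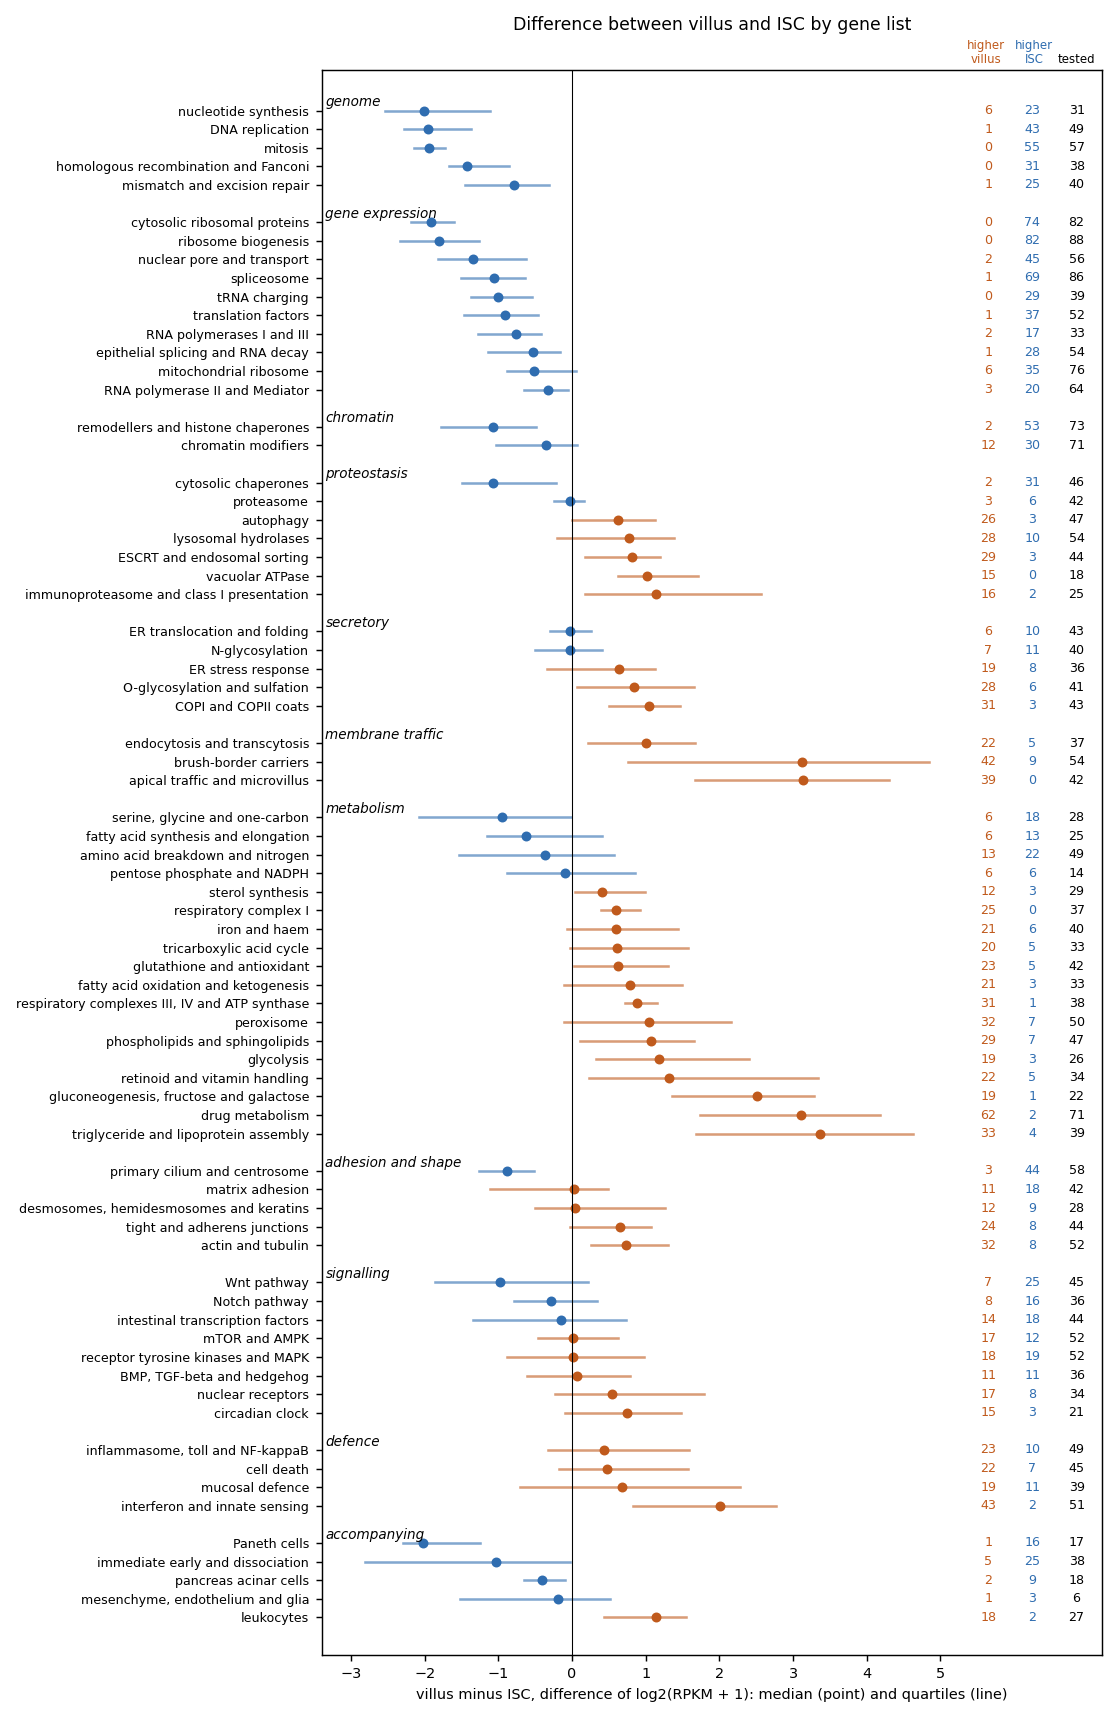
Median difference of log2(RPKM + 1), villus minus ISC, for 72 gene lists ordered by theme, with lines spanning the quartiles of the members and, at the right, the numbers of members called higher in each group and tested. Medians ran from -2.03 for Paneth cells to 3.37 for triglyceride and lipoprotein assembly; after scaling to equal summed RPKM, the medians of sterol synthesis, desmosomes, matrix adhesion, BMP, receptor tyrosine kinases and mTOR lay below 0.

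On the RPKM scale as deposited, some functions stood at nearly the same level in stem cells and in their differentiated progeny. The proteasome, the barrel-shaped protease that degrades ubiquitin-tagged proteins, was the list with the largest share of genes within 1.5-fold, 34 of 42 genes or 81%, against 34.5% of all genes. Its median difference was -0.03, or -0.45 after scaling to equal summed RPKM. Psmb7, a catalytic subunit of the core particle, stood at 109 RPKM in villus and 109.8 in ISC, and Psmc2, an ATPase of the regulatory cap, at 39.7 RPKM in villus and 40.0 in ISC. Only 9 of its 42 tested members were called. Among these, the assembly factors Psmg1, Psmg2 and Psmg3 were higher in ISC, with Psmg2 at 26.2 RPKM in ISC and 5.54 in villus, while the maturation factor Pomp was higher in villus, at 202 RPKM in villus and 94.6 in ISC.

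The machinery that threads proteins into the endoplasmic reticulum (ER) and folds them there was shared as well, with 28 of 43 genes within 1.5-fold. Srpr, the receptor for the signal recognition particle, was at 36.3 RPKM in villus and 36.6 in ISC, and Ssr3, a subunit beside the translocation channel, at 68.5 RPKM in villus and 70.3 in ISC. Among the 6 members higher in villus, P4hb, protein disulfide isomerase, which is also a subunit of the microsomal triglyceride transfer protein, was at 1339 RPKM in villus and 295 in ISC, a 4.54-fold difference. For N-glycosylation, the attachment of sugar trees to new proteins, 26 of 40 genes were within 1.5-fold. After scaling to equal summed RPKM the median was -0.45 for ER translocation and folding and -0.44 for N-glycosylation. Alg9, a mannosyltransferase of the lipid-linked precursor, stood at 9.93 RPKM in villus and 9.98 in ISC.

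General transcription had few calls toward villus, and many of its genes were close. Of the RNA polymerase II and Mediator genes, 43 of 64 were within 1.5-fold, and the median was -0.33. Higher in ISC were 20 of 64, 31.25%, near the 32.3% of all tested genes. Only 3 were higher in villus, 4.69% against 30.5% of all tested genes. Cdk8, the kinase of the Mediator complex, was at 21.2 RPKM in villus and 20.7 in ISC. The largest of the 3 differences toward villus was that of Gtf2b, the initiation factor TFIIB, at 88.2 RPKM in villus and 22.1 in ISC. Sterol synthesis had 15 of 28 genes within 1.5-fold, yet 12 of its 29 tested genes were higher in villus and 3 in ISC. Its median was 0.40, or -0.012 after scaling to equal summed RPKM. Srebf2, the transcription factor SREBP2, was at 24.2 RPKM in villus and 24.9 in ISC. Of the mTOR and AMPK list, which holds the nutrient- and energy-sensing kinases with their regulators, 22 of 46 genes were within 1.5-fold, while 17 of 52 tested genes were higher in villus and 12 in ISC.

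The single genes at the highest shared levels came from several of these functions. Among tested genes within 1.5-fold that were not called, the highest by mean RPKM was Fau, a fusion of a ubiquitin-like protein with ribosomal protein S30, at 1423 RPKM in villus and 1098 in ISC. Lgals2, a galectin of the gut epithelium, followed at 1081 RPKM in villus and 1191 in ISC. Tmsb4x, a peptide that binds actin monomers, was at 806 RPKM in villus and 1016 in ISC, and the cytoplasmic actin gene Actg1 was at 771 RPKM in villus and 942 in ISC. Krt19, a keratin found along the whole crypt-villus axis, was at 588 RPKM in villus and 573 in ISC. The remaining 10 of the 15 highest were Atp5e, Ndufa4, Uqcr10, Agr2, Gpx2, Ubb, Atp5j, Rps27l, Nme2 and Atp5g1, of which 5 encode parts of the respiratory chain or of ATP synthase.

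**Figure D2:**
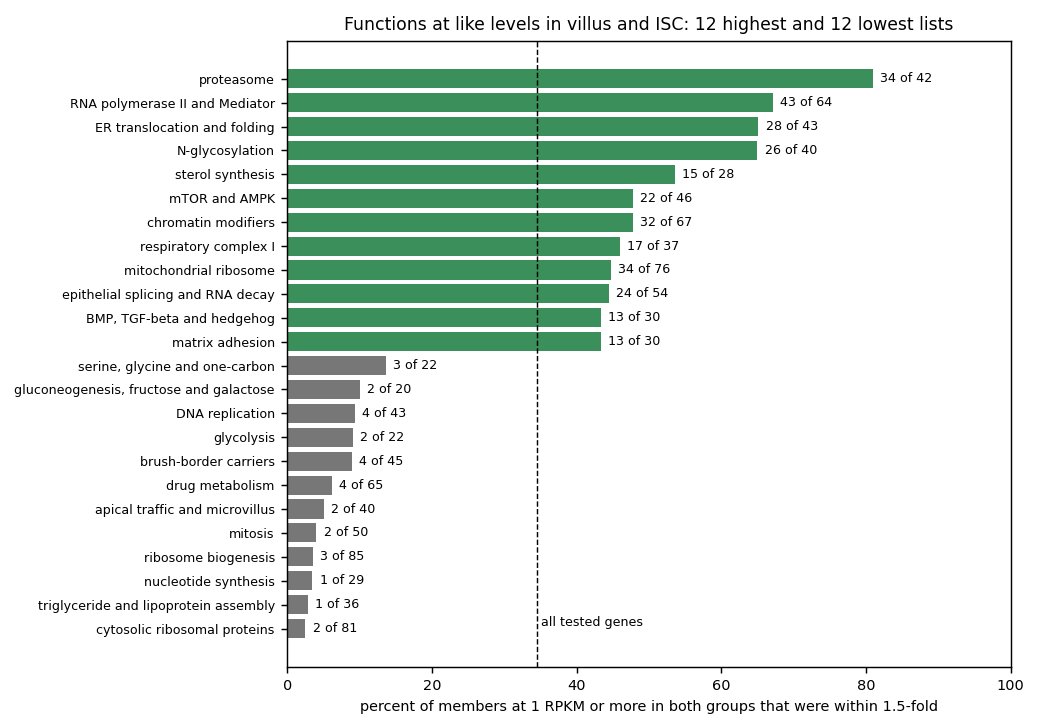
Percent of each list's members at 1 RPKM or more in both groups whose levels were within 1.5-fold, for the 12 highest and the 12 lowest of the functional lists with at least 20 such members, with the counts beside the bars. The dashed line marks 34.5% for all tested genes; the proteasome stands at 34 of 42 and cytosolic ribosomal proteins at 2 of 81.

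Genome duplication was almost uniformly higher in ISC. Of the 57 tested mitosis genes, 55 were higher in ISC and none in villus, with a median difference of -1.94. Of the 49 DNA replication genes, 43 were higher in ISC and 1 in villus, with a median of -1.96. Mcm2, a subunit of the helicase that unwinds DNA at the fork, was at 38.7 RPKM in ISC and 4.27 in villus, and Pold1, the catalytic subunit of the lagging-strand polymerase, at 21.5 RPKM in ISC and 1.91 in villus. Pold4, the small accessory subunit of the same polymerase, was the 1 member higher in villus, at 30.1 RPKM in villus and 7.91 in ISC. Ccnb2, a cyclin that drives entry into mitosis, was at 41.5 RPKM in ISC and 7.47 in villus. Bub1b, the spindle checkpoint kinase BubR1, was at 20.9 RPKM in ISC and 3.35 in villus, a 6.22-fold difference, and Cdc20, which activates the ligase that ends mitosis, was at 43.2 RPKM in ISC and 7.8 in villus. Among the mitosis genes that were not called, Cdc25b, the phosphatase that activates the mitotic kinase, stood at 5.19 RPKM in villus and 6.99 in ISC, and the checkpoint protein gene Bub3 at 17.2 RPKM in villus and 24.3 in ISC.

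Repair by homologous recombination and by the Fanconi pathway, which mend broken or cross-linked DNA during replication, followed the same direction, with 31 of 38 genes higher in ISC and none in villus. The checkpoint kinase Atr stood at 7.82 RPKM in ISC and 0.99 in villus. Mismatch and excision repair had a smaller median, with 25 of 40 genes higher in ISC and a value of -0.78. Ercc6, which couples repair to transcription, was at 2.74 RPKM in villus and 2.83 in ISC and was not called.

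Nucleotide supply had a median of -2.01, the farthest toward ISC of the 67 functional lists, with 23 of 31 genes higher in ISC. Impdh2, the enzyme that commits purine synthesis to guanine nucleotides, was at 201 RPKM in ISC and 19.3 in villus. Ctps, which makes the cytidine nucleotide CTP, was at 21.4 RPKM in ISC and 2.26 in villus, and Dut, which removes dUTP before it enters DNA, was at 25.2 RPKM in ISC and 2.94 in villus. Among the 6 members higher in villus, Samhd1, which degrades deoxynucleotides, was at 41.4 RPKM in villus and 12.4 in ISC.

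The promoters of these genes were read for short sequence motifs, since cell-cycle genes share well-known ones. RefSeq promoter windows on build GRCm38.p6, from 250 bases before to 50 after each start, were matched by symbol for 10220 of 13007 tested genes, 78.6%, under the 80% needed for a comparison over all called genes, so that comparison is void and only lists with at least 80% matched are described. Motifs were searched on both strands, and overlapping matches of different motifs were each counted. The CHR element TTTGAA was in 35 of 55 promoters of the mitosis list, 63.6%, and in 17.9% of all 32851 promoters. The CCAAT box was in 72.7% of the mitosis promoters and in 37.4% of all. The E2F site TTTCCCGC was in 10 of 51 promoters of the DNA replication list, 19.6%, against 1.07% of all. This list has 49 genes, so some of them entered with more than 1 start. The 32851 promoters are not limited to tested genes, so the 2 sets compared are unlike. For ribosome biogenesis, described below, the E box CACGTG was in 16 of 83 promoters, 19.3%, against 7.15% of all, and the ETS site CCGGAAGT was in 22.9% against 3.89%. A match describes letters in a window and is not a measured binding site.

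The 200 bases before the start are shown for 5 genes called higher in ISC, those with the largest differences in their lists whose outermost start had the motif, with the motif in capitals on either strand: the E2F site in Gins3, the CHR element and the CCAAT box in Cdc20 and Ccnb2, and the E box in Nop2 and Nol11. They lie at chr8:95633359-95633558 (plus strand, Gins3), chr4:118437344-118437543 (minus strand, Cdc20), chr9:70421555-70421754 (minus strand, Ccnb2), chr6:125131683-125131882 (plus strand, Nop2) and chr11:107189382-107189581 (minus strand, Nol11) on build GRCm38.p6.
Gins3: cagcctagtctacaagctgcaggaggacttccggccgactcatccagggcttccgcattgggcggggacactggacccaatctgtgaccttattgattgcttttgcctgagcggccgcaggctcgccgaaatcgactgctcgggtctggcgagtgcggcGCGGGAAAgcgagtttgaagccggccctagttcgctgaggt
Cdc20: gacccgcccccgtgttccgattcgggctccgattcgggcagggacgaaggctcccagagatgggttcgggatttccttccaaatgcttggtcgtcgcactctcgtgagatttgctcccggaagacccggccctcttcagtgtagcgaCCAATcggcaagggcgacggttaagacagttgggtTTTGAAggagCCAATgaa
Ccnb2: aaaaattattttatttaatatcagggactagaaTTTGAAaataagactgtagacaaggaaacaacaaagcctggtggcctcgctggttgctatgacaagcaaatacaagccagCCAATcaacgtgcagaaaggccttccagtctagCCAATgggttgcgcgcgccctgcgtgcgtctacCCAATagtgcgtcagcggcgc
Nop2: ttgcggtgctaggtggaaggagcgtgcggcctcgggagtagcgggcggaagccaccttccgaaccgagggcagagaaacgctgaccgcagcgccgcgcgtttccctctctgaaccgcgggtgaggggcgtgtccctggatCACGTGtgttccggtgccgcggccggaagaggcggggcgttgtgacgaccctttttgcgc
Nol11: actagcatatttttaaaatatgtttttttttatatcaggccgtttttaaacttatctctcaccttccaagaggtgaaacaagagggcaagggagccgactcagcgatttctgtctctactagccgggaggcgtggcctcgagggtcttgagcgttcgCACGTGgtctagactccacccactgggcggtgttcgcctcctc

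Gins3, a subunit of the replication helicase, was at 3.03 RPKM in ISC and 0.718 in villus. In the Cdc20 window the CHR element and the second CCAAT box are 4 bases apart, close to the start. In the Ccnb2 window 3 CCAAT boxes lie between the CHR element and the start. Nop2, a methyltransferase of ribosomal RNA, was at 30.6 RPKM in ISC and 7.47 in villus, and Nol11, a part of the complex that processes the small-subunit precursor, at 13.4 RPKM in ISC and 3.0 in villus.

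Ribosome production was higher in ISC. Of 88 ribosome biogenesis genes, 82 were higher in ISC and none in villus. Nop56, a core protein of the small nucleolar particles that modify ribosomal RNA, was at 98.8 RPKM in ISC and 10.3 in villus, and Npm1, nucleophosmin of the nucleolus, at 584 RPKM in ISC and 81.4 in villus. Polr1b, the second-largest subunit of the polymerase that transcribes ribosomal RNA, was at 17.9 RPKM in ISC and 2.15 in villus. In the list of RNA polymerases I and III, 17 of 33 genes were higher in ISC and 2 in villus, namely Polr3c, a subunit of polymerase III, at 38.9 RPKM in villus and 18.5 in ISC, and Maf1, the repressor of polymerase III, at 49.5 RPKM in villus and 31.7 in ISC. The 82 cytosolic ribosomal protein genes held 24.8% of the summed RPKM in ISC and 5.28% in villus. Rps19 was at 1466 RPKM in ISC and 212 in villus. Rps27l, a ribosomal protein variant that p53 induces, was at 351 RPKM in villus and 298 in ISC and was not called. Of these 82 genes 33 share a locus entry in the table with another gene, so their reads may be divided between genes. The same holds for at least 18 of the genes named in the text, among them Cdc20, Nop56, Hk1, Slc6a19 and Nr1i3.

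The mitochondrial ribosome, which translates the few proteins encoded in mitochondrial DNA, lay closer to equal levels. Its median was -0.52, 34 of 76 genes were within 1.5-fold, 35 were higher in ISC and 6 higher in villus. Mrps18b was at 45 RPKM in ISC and 15.9 in villus, while Mrps36, since recognised as a part of the oxoglutarate dehydrogenase complex, was at 93.3 RPKM in villus and 33.8 in ISC.

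Processing, export and decoding of messenger RNA were also higher in ISC. The spliceosome list had 69 of 86 genes higher in ISC, with a median of -1.06. Small Sm and Lsm ring proteins were among the largest differences, with Snrpg at 305 RPKM in ISC and 65.7 in villus and Lsm7 at 94.1 RPKM in ISC and 16.6 in villus, whereas Prpf6, a bridge between splicing particles, stood at 18.1 RPKM in villus and 17.9 in ISC. The nuclear pore list had 45 of 56 genes higher in ISC. The transmembrane pore protein gene Nup210 was at 17.9 RPKM in ISC and 1.44 in villus, a 12.4-fold difference. Of the pore list, Sec13, which is also a subunit of the COPII vesicle coat, was higher in villus, at 178 RPKM in villus and 71.6 in ISC. Translation factors had 37 of 52 genes higher in ISC, among them Pabpc4, a poly(A)-binding protein, at 41.6 RPKM in ISC and 4.9 in villus. Eif6, which keeps ribosomal subunits apart, was the 1 factor higher in villus, at 183 RPKM in villus and 75.8 in ISC. Eef2k, the kinase that slows elongation, was at 10.1 RPKM in villus and 10.1 in ISC. Of the enzymes that load amino acids onto transfer RNA, 29 of 39 were higher in ISC and none in villus, with Vars, the valine enzyme, at 64.5 RPKM in ISC and 7.44 in villus.

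**Figure D3:**
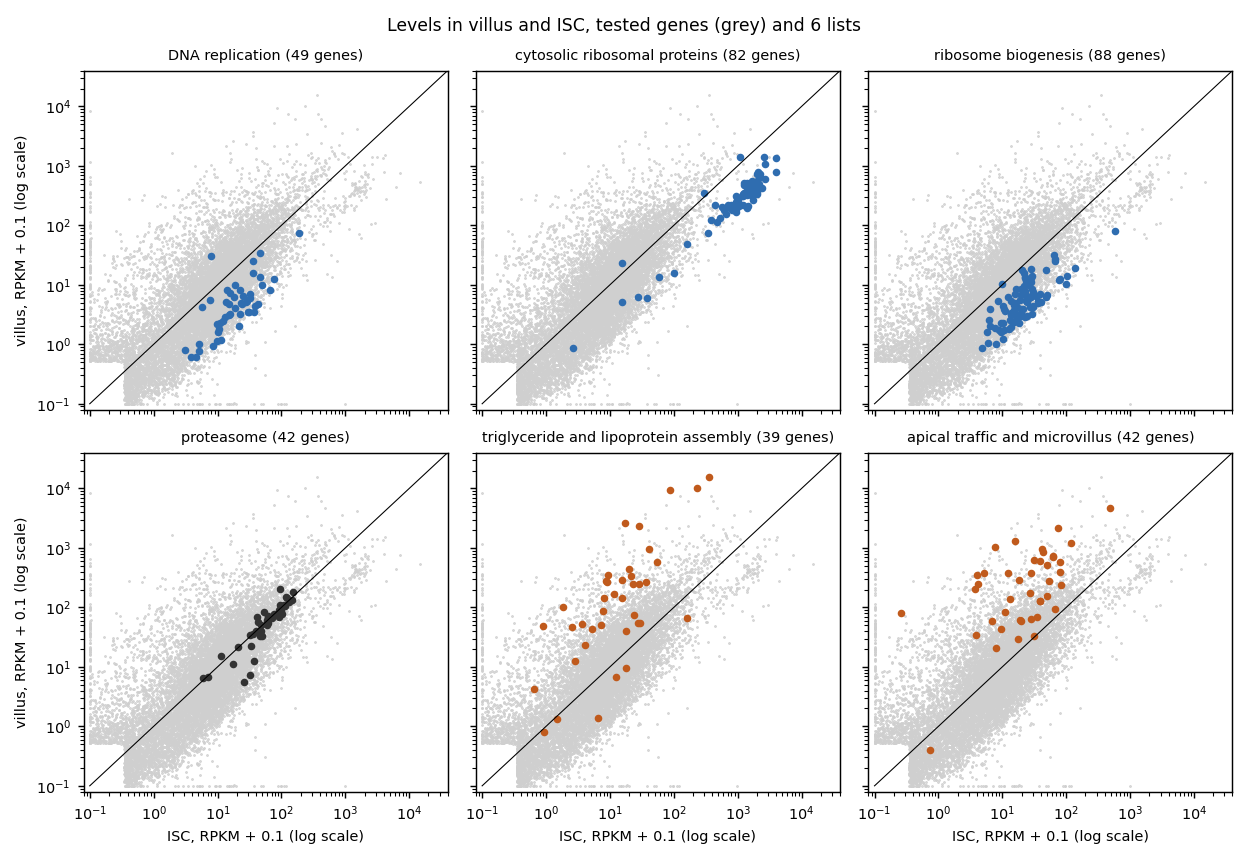
RPKM in villus against RPKM in ISC, each with 0.1 added and on log axes, for the 13007 tested genes in grey and for the tested members of 6 lists in colour, with the line of equal levels. DNA replication, ribosomal protein and ribosome biogenesis genes lie mostly below the line, with 43 of 49, 74 of 82 and 82 of 88 called higher in ISC, proteasome genes lie mostly along it, and lipoprotein and microvillus genes lie mostly above it.

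Remodellers and histone chaperones, which move or load nucleosomes, had 53 of 73 genes higher in ISC and 2 in villus, with a median of -1.07. Chaf1b, a subunit of the chaperone that loads histones behind the replication fork, was at 14.9 RPKM in ISC and 1.68 in villus. Hmgn1, a nucleosome-binding protein, was at 128 RPKM in ISC and 14 in villus. In contrast Chd3, an ATPase of the NuRD complex, was at 43.3 RPKM in villus and 7.97 in ISC, a 5.43-fold difference toward villus. Enzymes that write or erase chromatin marks were closer to even, with 32 of 67 genes within 1.5-fold, 30 of 71 higher in ISC and 12 in villus. Uhrf1, which brings the maintenance DNA methyltransferase to replicated DNA, was at 38.8 RPKM in ISC and 3.81 in villus, and the arginine methyltransferase gene Prmt5 at 31.6 RPKM in ISC and 4.54 in villus. The histone H3 lysine 4 methyltransferase gene Kmt2c was at 6.21 RPKM in villus and 6.09 in ISC. Toward villus stood the deacetylase gene Sirt3, whose product works in mitochondria, at 19.5 RPKM in villus and 7.3 in ISC, and the acetyltransferase gene Kat2b at 14.1 RPKM in villus and 5.32 in ISC, while its close relative Kat2a was at 19.8 RPKM in ISC and 2.8 in villus. Eed itself, given here because its alleles differ between the groups and not by the rule for named genes, was at 24.2 RPKM in ISC and 10.7 RPKM in villus and was higher in ISC.

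Protein breakdown outside the proteasome was higher in villus. Autophagy, which delivers cytoplasm to lysosomes, had 26 of 47 genes higher in villus and 3 in ISC. Optn, a receptor that links ubiquitinated cargo to the autophagosome, was at 95.9 RPKM in villus and 7.47 in ISC, and Bnip3, which marks mitochondria for removal, at 17.7 RPKM in villus and 1.27 in ISC. Ulk1, the kinase that starts autophagy, went the other way, at 8.26 RPKM in ISC and 4.78 in villus. The vacuolar ATPase, the proton pump that acidifies lysosomes, had 15 of 18 tested genes higher in villus and none in ISC, 5 of the 23 listed genes having no valid test. Atp6v0a2, a membrane subunit, was at 89.8 RPKM in villus and 19.1 in ISC. ESCRT and endosomal sorting genes had 29 of 44 higher in villus, among them Chmp1a at 121 RPKM in villus and 31.3 in ISC. Lysosomal hydrolases were more mixed, with 28 of 54 higher in villus and 10 in ISC. Lipa, the acid lipase that splits cholesteryl esters, was at 52.3 RPKM in villus and 1.24 in ISC, a 42-fold difference, whereas Gaa, the acid glucosidase, was at 10.5 RPKM in ISC and 4.09 in villus. Ctss, a cathepsin also made by leukocytes, was at 159.6 RPKM in villus and 21.6 in ISC, and 18 of 27 leukocyte genes were higher in villus too.

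Chaperones outside the ER lay on the ISC side, with 31 of 46 genes higher there. Hsp90ab1, a constitutive HSP90, was at 888 RPKM in ISC and 168 in villus, and Hspd1, the mitochondrial chaperonin, at 311 RPKM in ISC and 72.9 in villus. The stress-inducible Hspa1b, also a member of the dissociation list, was at 14.4 RPKM in ISC and 0.933 in villus.

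The early secretory route toward the Golgi was higher in villus even though ER entry and N-glycosylation were even on the RPKM scale as deposited. COPI and COPII coat genes, which form the vesicles between ER and Golgi, had 31 of 43 higher in villus and 3 in ISC. Sec24d, a cargo adaptor of COPII, was at 90.2 RPKM in villus and 7.9 in ISC. Sec23a was at 95.4 RPKM in villus and 9.04 in ISC, a 10.6-fold difference. Sar1b, the GTPase that starts the COPII coat and is needed to export chylomicrons, the lipoprotein particles of dietary fat, was at 265 RPKM in villus and 36.1 in ISC, whereas its paralogue Sar1a was at 28.7 RPKM in villus and 30.1 in ISC and was not called. O-glycosylation and sulfation, which build the sugar coat of mucins and surface proteins, had 28 of 41 genes higher in villus. Papss2, which makes the sulfate donor, was at 359.7 RPKM in villus and 7.62 in ISC, and Slc26a2, the sulfate carrier, at 63.7 RPKM in villus and 6.61 in ISC.

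Of the 36 ER stress genes 19 were higher in villus and 8 in ISC. Creb3l2, a membrane-bound transcription factor that raises secretory capacity, was at 25.9 RPKM in villus and 2.7 in ISC, and Wfs1, an ER membrane protein, at 8.09 RPKM in villus and 2.3 in ISC. Toward ISC, Ppp1r15a, the phosphatase subunit GADD34, was at 39.7 RPKM in ISC and 2.25 in villus, and Asns, asparagine synthetase, at 36.3 RPKM in ISC and 10.9 in villus. Trib3, a pseudokinase induced by ER stress, was higher in villus, at 14.3 RPKM in villus and 0.982 in ISC. Ppp1r15a is also in the dissociation list, in which 25 of 38 genes were higher in ISC.

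The brush border was almost uniformly higher in villus. Of 42 tested genes of apical traffic and the microvillus, 39 were higher in villus and none in ISC, with a median of 3.13, and their share of the summed RPKM was 3.51% in villus and 0.416% in ISC. Treh, the enzyme that splits trehalose, was at 345 RPKM in villus and 3.9 in ISC, and Tmigd1, an adhesion protein of microvilli, at 81.5 RPKM in villus and 0.157 in ISC. Myo6, the motor that moves toward the base of actin filaments, stood at 33.1 RPKM in villus and 31.2 in ISC and was not called.

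Carriers for nutrients had 42 of 54 genes higher in villus and 9 in ISC. Slc15a1, the carrier for small peptides, was at 279 RPKM in villus and 2.65 in ISC. Slc6a19, the main carrier for neutral amino acids, was at 389.6 RPKM in villus and 4.09 in ISC, and Slc51b, a subunit of the basolateral bile acid exporter, at 343 RPKM in villus and 3.31 in ISC. Among the 9 carriers higher in ISC, Slc12a2, which brings sodium, potassium and chloride into secreting cells, was at 215 RPKM in ISC and 14.4 in villus. Slc1a5, the glutamine carrier, was at 34 RPKM in ISC and 6.26 in villus, and Slc29a1, a nucleoside carrier, at 25.3 RPKM in ISC and 3.17 in villus. Slc19a1, the reduced folate carrier, was at 23.4 RPKM in villus and 23.4 in ISC, within 1.5-fold.

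Uptake through vesicles was split by receptor. Cubn, the receptor for vitamin B12 bound to intrinsic factor, was at 42 RPKM in villus and 0.489 in ISC, and its partner Amn at 104 RPKM in villus and 15.8 in ISC. Fcgrt, the receptor that carries antibodies across the epithelium, was at 62.2 RPKM in villus and 10.4 in ISC. Tfrc, the transferrin receptor that brings in iron from the blood, was at 108 RPKM in ISC and 20.7 in villus. Of the 37 tested genes of this list 22 were higher in villus and 5 in ISC.

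Sugar metabolism was mostly higher in villus. Glycolysis had 19 of 26 genes higher in villus and 3 in ISC. Pklr, the pyruvate kinase of liver and red cells, was at 182 RPKM in villus and 16.7 in ISC, and Ldha, lactate dehydrogenase A, at 1386 RPKM in villus and 300.3 in ISC. The 3 genes higher in ISC included 2 that phosphorylate glucose, Hk2, hexokinase 2, at 16.4 RPKM in ISC and 3.34 in villus and Adpgk, an ADP-dependent glucokinase, at 12.4 RPKM in ISC and 2.25 in villus. Gluconeogenesis and the use of fructose and galactose had 19 of 22 genes higher in villus. G6pc, which releases free glucose, was at 21.6 RPKM in villus and 0.222 in ISC. Gyk, glycerol kinase, was at 119.7 RPKM in villus and 2.4 in ISC.

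Respiration was mostly higher in villus, by smaller folds. Complex I had 25 of 37 genes higher in villus and none in ISC, while its median was 0.60 and 17 of 37 genes were within 1.5-fold. Ndufb9 was at 553 RPKM in villus and 222 in ISC, and Ndufa10 at 113 RPKM in villus and 108 in ISC. Complexes III and IV with ATP synthase had 31 of 38 genes higher in villus. Cox7a1, a subunit of cytochrome oxidase best known from muscle and heart, was at 919 RPKM in villus and 23.7 in ISC, a 38.7-fold difference, while its paralogue Cox7a2 was at 389 RPKM in villus and 159 in ISC and the related supercomplex factor Cox7a2l at 190.3 RPKM in villus and 196 in ISC. Under equal summed RPKM the complex I median was 0.18. In the tricarboxylic acid cycle, 20 of 33 genes were higher in villus and 5 in ISC. Mdh2, mitochondrial malate dehydrogenase, was at 1513 RPKM in villus and 265 in ISC, and its cytosolic partner Mdh1 at 959 RPKM in villus and 149 in ISC. The NADP-dependent isocitrate dehydrogenases were opposite, with the cytosolic Idh1 at 308 RPKM in villus and 25.6 in ISC and the mitochondrial Idh2 at 72.7 RPKM in ISC and 25.1 in villus.

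The NADPH-producing reactions kept no common direction, with 6 of 14 genes higher in each group. Me1, malic enzyme, was at 70.7 RPKM in villus and 4.25 in ISC, and Pgd, of the pentose phosphate pathway, at 183 RPKM in villus and 64.4 in ISC. On the other side stood Mthfd2, a mitochondrial folate enzyme, at 16 RPKM in ISC and 2.35 in villus. Tkt, transketolase, was at 179 RPKM in villus and 168 in ISC and was not called.

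Fat handling had the largest median of the 72 lists, 3.37. Triglyceride and lipoprotein assembly had 33 of 39 tested genes higher in villus and 4 in ISC, and its share of the summed RPKM was 7.79% in villus and 0.309% in ISC. Fabp2, the intestinal fatty acid binding protein (chr3:122598309-122602424 on build mm9), was at 15718 RPKM in villus and 356 in ISC. Apoa1, the main protein of high-density lipoprotein, was at 9299 RPKM in villus and 85.9 in ISC, and Apoc2, the activator of lipoprotein lipase, at 2362 RPKM in villus and 28 in ISC. Its relative Apoa4 is listed at 0 in villus without a valid test and enters no count. Gpam, the mitochondrial enzyme that starts glycerolipid synthesis, was on the other side, at 6.37 RPKM in ISC and 1.26 in villus, and Lpin1, a phosphatidate phosphatase, stood at 1.21 RPKM in villus and 1.39 in ISC.

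Fatty acid synthesis and elongation had 13 of 25 genes higher in ISC and 6 in villus. Fasn, fatty acid synthase, was at 25.8 RPKM in ISC and 4.64 in villus, and Fads1, a desaturase of polyunsaturated fatty acids, at 44.4 RPKM in ISC and 3.12 in villus, a 14.2-fold difference. Elovl6, which lengthens saturated fatty acids, was at 29.1 RPKM in villus and 8.45 in ISC. Fatty acid oxidation and ketogenesis had 21 of 33 genes higher in villus and 3 in ISC. Hadh, of the mitochondrial beta-oxidation spiral, was at 636 RPKM in villus and 146 in ISC, and Acsl5, which activates fatty acids, at 1059.8 RPKM in villus and 58.5 in ISC. Cpt1a, the gate for entry into mitochondria, was at 36.6 RPKM in villus and 37.3 in ISC and was not called. Ppargc1a, a coactivator of mitochondrial genes, was at 12.6 RPKM in villus and 1.48 in ISC.

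Peroxisomes, which shorten very long fatty acids, had 32 of 50 genes higher in villus and 7 in ISC. Pex3, a biogenesis factor that was not called, was at 7.93 RPKM in villus and 7.31 in ISC. Gnpat and Far1, which make ether lipids there, were higher in ISC, Gnpat at 23.4 RPKM in ISC and 9.05 in villus and Far1 at 2.45 RPKM in ISC and 0.76 in villus. Among phospholipid and sphingolipid genes, 29 of 47 were higher in villus. Enpp7, the sphingomyelinase of the gut lumen, was at 398 RPKM in villus and 2.34 in ISC, Asah2, the ceramidase next to it, at 327 RPKM in villus and 4.48 in ISC, and Sgpl1, which breaks down the resulting sphingosine phosphate, at 181 RPKM in villus and 12.3 in ISC. Pcyt1a, which controls synthesis of phosphatidylcholine, was at 85 RPKM in villus and 7.14 in ISC. Pemt, which makes the same lipid by methylation, was at 4.17 RPKM in ISC and 0.979 in villus.

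Amino acid and folate metabolism had more calls toward ISC than toward villus. Serine, glycine and folate metabolism, which supplies carbon units for purines and thymidylate, had 18 of 28 tested genes higher in ISC and 6 in villus. Phgdh, the first enzyme of serine synthesis, was at 34.7 RPKM in ISC and 2.3 in villus, a 15.1-fold difference. Shmt1 was at 59.9 RPKM in ISC and 7.35 in villus, and Gart, of purine synthesis, at 38.5 RPKM in ISC and 5.02 in villus. Aldh1l1, which burns off folate-bound carbon, was higher in villus, at 65.7 RPKM in villus and 10.7 in ISC. Breakdown of amino acids and nitrogen disposal had 22 of 49 tested genes higher in ISC and 13 in villus. Cps1, which captures ammonia for the urea cycle, was at 584 RPKM in ISC and 114 in villus. Glul, glutamine synthetase, was at 42 RPKM in ISC and 7.27 in villus, and Srm, which makes the polyamine spermidine, at 28 RPKM in ISC and 3.1 in villus. In villus Gpt, alanine aminotransferase, was at 242 RPKM in villus and 6.45 in ISC, Arg2, the mitochondrial arginase, at 442 RPKM in villus and 40.5 in ISC, and Aldh4a1, of proline breakdown, at 76.2 RPKM in villus and 0.948 in ISC.

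Detoxification was called higher in villus almost throughout, with 62 of 71 drug metabolism genes higher there and 2 in ISC. Cyp2b10, a cytochrome P450 induced by the receptor CAR, was at 238 RPKM in villus and 3.82 in ISC, and Cyp3a25 at 248 RPKM in villus and 4.38 in ISC. The carboxylesterase Ces1d was higher in ISC, at 19.5 RPKM in ISC and 6.0 in villus, and Ephx1, an epoxide hydrolase, stood at 11.6 RPKM in villus and 12.2 in ISC. The glutathione and antioxidant list had 23 of 42 genes higher in villus. Ggt1, which degrades glutathione at the cell surface, was at 675 RPKM in villus and 6.13 in ISC. Sepp1, the plasma selenium carrier, was at 3164 RPKM in villus and 35.6 in ISC, and Srxn1, which repairs oxidised peroxiredoxins, at 184 RPKM in villus and 7.09 in ISC. Prdx4, the peroxiredoxin of the ER, was at 55.7 RPKM in ISC and 11.4 in villus.

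Iron and haem genes had 21 of 40 higher in villus and 6 in ISC, and retinoid and vitamin genes 22 of 34 and 5. Slc40a1, ferroportin, the only known cellular iron exporter, was at 56.8 RPKM in villus and 1.66 in ISC, and Heph, the oxidase that works with it, at 114 RPKM in villus and 9.46 in ISC. With Tfrc higher in ISC, the import route from blood and the export route to blood stood on opposite sides. Steap3, a reductase of the transferrin route, was at 6.6 RPKM in ISC and 1.29 in villus. Rbp2, the cellular retinol carrier of enterocytes, was at 7401 RPKM in villus and 125 in ISC, and Slc46a1, the folate carrier of the proximal gut, at 217 RPKM in villus and 2.48 in ISC. Vdr, the vitamin D receptor, was even, at 134 RPKM in villus and 136 in ISC. Mmachc, which processes vitamin B12 inside cells, was at 10.3 RPKM in ISC and 2.43 in villus.

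**Figure D4:**
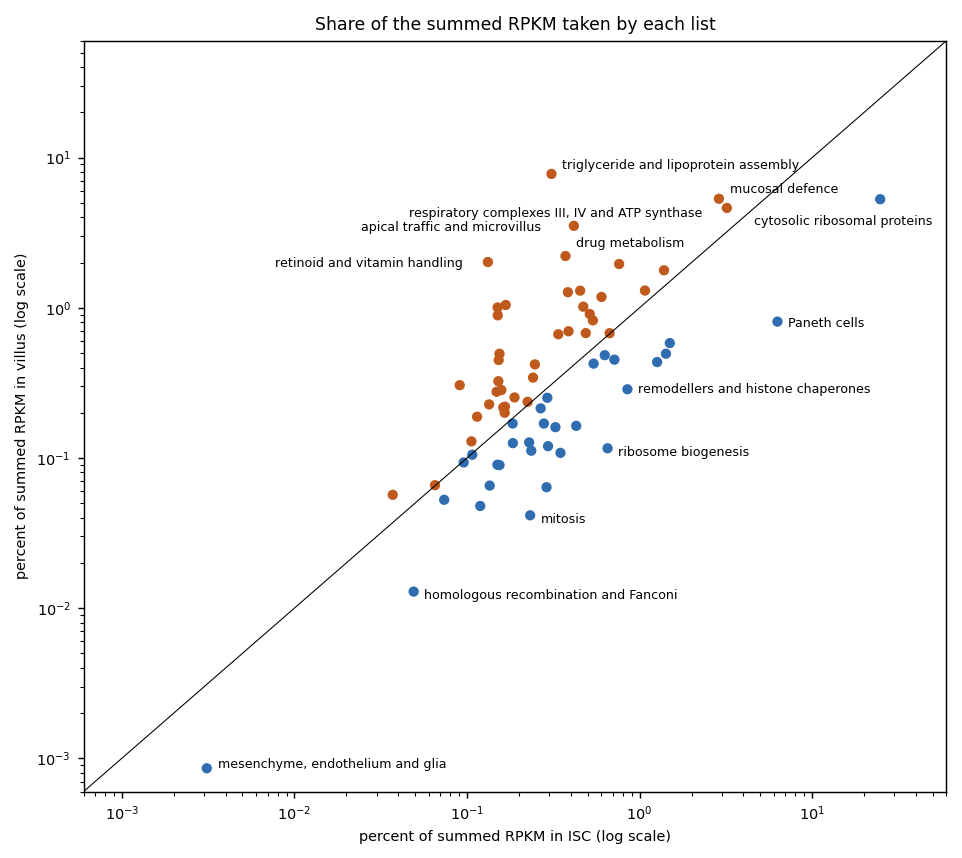
Percent of the summed RPKM of all tested genes held by each of 72 lists, villus against ISC on log axes, with the line of equal shares; orange points have the larger share in villus and blue points in ISC. Cytosolic ribosomal proteins hold 5.28% in villus and 24.8% in ISC, and triglyceride and lipoprotein assembly 7.79% and 0.309%.

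Cell shape and adhesion had calls in both directions, with 81 of 222 tested genes of this theme higher in villus and 87 in ISC. Junction genes had 24 of 44 higher in villus, among them Cdh17, a cadherin of the intestinal lateral membrane, at 653 RPKM in villus and 125 in ISC, and Crb3, an apical polarity protein, at 86.7 RPKM in villus and 19.5 in ISC. Cldn2, which forms pores for cations and water, was at 55.2 RPKM in ISC and 15.2 in villus. The scaffold gene Dlg1 was at 15.3 RPKM in villus and 15.3 in ISC. Actin and tubulin regulators had 32 of 52 genes higher in villus. Rhoc, a small GTPase, was at 265 RPKM in villus and 6.15 in ISC, and Gsn, gelsolin, which severs actin, at 41.3 RPKM in villus and 3.33 in ISC. Tuba1b, an alpha-tubulin, was at 75 RPKM in ISC and 8.24 in villus, and Stmn1, which destabilises microtubules, at 211 RPKM in ISC and 27.6 in villus.

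The primary cilium and centrosome list had 44 of 58 genes higher in ISC and 3 in villus. Cep55, needed for the final cut between daughter cells, was at 9.41 RPKM in ISC and 1.77 in villus, and Cc2d2a, of the ciliary transition zone, at 4.71 RPKM in ISC and 0.516 in villus. Ift20, a transport protein that also works at the Golgi, was at 144 RPKM in villus and 35.3 in ISC. For adhesion to the matrix, 11 of 42 tested genes were higher in villus and 18 in ISC. Lama3, a laminin chain, was at 8.58 RPKM in villus and 0.0414 in ISC, and Itga3, a laminin receptor, at 59.7 RPKM in villus and 12.1 in ISC. Cd44, a hyaluronan receptor of crypt cells, was at 21.9 RPKM in ISC and 1.61 in villus, whereas Itga6, the partner in hemidesmosomes, was even at 55.8 RPKM in villus and 54.7 in ISC.

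In signalling the calls were near balance, with 106 of 312 tested genes higher in villus and 108 in ISC. The Wnt pathway, which maintains stem cells, had 25 of 45 tested genes higher in ISC and 7 in villus. Sfrp5, a secreted Wnt antagonist, was at 18.7 RPKM in ISC and 0.763 in villus. Ctnnb1, beta-catenin, which is both the Wnt effector and a junction protein, was higher in villus, at 341 RPKM in villus and 173 in ISC, and the co-receptor Lrp5 was even, at 19 RPKM in villus and 18.6 in ISC. In the Notch list, 16 of 36 genes were higher in ISC and 8 in villus. The receptor gene Notch2 was at 4.55 RPKM in ISC and 0.447 in villus and the target Hes1 at 51.4 RPKM in ISC and 10.4 in villus, while Numb, an inhibitor of Notch, was at 50.8 RPKM in villus and 12.1 in ISC.

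In the hedgehog and BMP pathways, the ligand Ihh was at 26.8 RPKM in villus and 5.22 in ISC, and Smo, the transducer of hedgehog signals, at 13.5 RPKM in ISC and 0.643 in villus. Smad7, an inhibitor of TGF-beta signalling, was at 13.7 RPKM in villus and 2.62 in ISC, the ligand Bmp7 at 7.3 RPKM in ISC and 0.828 in villus, and the effector Smad2 even at 11.3 RPKM in villus and 11.2 in ISC. Among receptor tyrosine kinases and MAPK regulators, 18 were higher in villus and 19 in ISC. Ephb3, a receptor that keeps cells in the crypt, was at 16.6 RPKM in ISC and 1.12 in villus, and Efnb2, a ligand of the Eph receptors, at 18 RPKM in villus and 1.87 in ISC. Lrig1, which restrains growth factor receptors, was at 45.9 RPKM in ISC and 6.05 in villus. Dusp6, the phosphatase that shuts off ERK, was at 42.3 RPKM in villus and 4.21 in ISC. Among growth and energy sensors, Sesn1, which inhibits mTOR complex 1, was at 60.5 RPKM in villus and 13 in ISC, and Ddit4, another mTOR inhibitor, at 63.8 RPKM in ISC and 11.3 in villus.

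Clock genes had 15 of 21 higher in villus and 3 in ISC. Dbp, an output factor of the clock, was at 26.6 RPKM in villus and 2.07 in ISC, and Arntl, the core activator BMAL1, at 9.55 RPKM in ISC and 4.68 in villus. The time of day at which mice were killed is not given in the labels, and its part in these values was not tested. Nuclear receptors had 17 of 34 tested genes higher in villus. Hnf4g was at 178 RPKM in villus and 19.3 in ISC, whereas its paralogue Hnf4a, a master regulator of enterocyte genes, was even at 204 RPKM in villus and 187 in ISC. The xenobiotic receptors were both higher in villus, Nr1i3 (CAR) at 53.9 RPKM in villus and 3.62 in ISC and Nr1i2 (PXR) at 83.8 RPKM in villus and 17.4 in ISC. Esrrg, a receptor without known hormone, was at 8.68 RPKM in ISC and 0.77 in villus. Nr4a2 was at 9.43 RPKM in ISC and 1.1 in villus, and all 3 Nr4a genes are also in the dissociation list. Among intestinal transcription factors, Maf was at 86.5 RPKM in villus and 1.17 in ISC, Sox4 was at 17.2 RPKM in ISC and 1.92 in villus, and the identity factor Cdx2 was even, at 70.9 RPKM in villus and 65 in ISC.

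Defence genes were mostly higher in villus. The interferon and innate sensing list had 43 of 51 genes higher in villus and 2 in ISC. Ifit1, which binds foreign RNA, was at 54.6 RPKM in villus and 0.213 in ISC, and Irf7, the amplifying transcription factor, at 172 RPKM in villus and 4.98 in ISC. The 2 genes higher in ISC form 1 route for sensing DNA, with Tmem173 (STING) at 3.21 RPKM in ISC and 0.399 in villus and Mb21d1 (cGAS) at 3.39 RPKM in ISC and 0.625 in villus. Class I presentation had 16 of 25 genes higher in villus, with H2-T23 at 335 RPKM in villus and 36.6 in ISC. The H2 genes are near-identical copies, so reads may be divided among them, and leukocyte genes moved in the same direction. In the inflammasome list, Gsdmd, the pore-forming gasdermin, was at 293 RPKM in villus and 14.9 in ISC, and Il18, the cytokine it releases, at 104 RPKM in villus and 5.64 in ISC. Nfkb1 was even, at 19.7 RPKM in villus and 19.2 in ISC. Nod1, a sensor of bacterial cell walls, was at 3.73 RPKM in ISC and 0.618 in villus. Of the cell death list 22 of 45 genes were higher in villus and 7 in ISC, and Birc5, which is both an inhibitor of death and a mitotic protein, was at 50.3 RPKM in ISC and 13.6 in villus.

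Mucosal defence had calls in both directions, with 19 of 39 tested genes higher in villus and 11 in ISC. Reg3b, a lectin that kills bacteria, was at 5321 RPKM in villus and 75.8 in ISC, and Duoxa2, the partner of a hydrogen peroxide-producing oxidase, at 225 RPKM in villus and 1.14 in ISC. Dmbt1, a scavenger protein, was at 455 RPKM in ISC and 98.7 in villus. Pla2g2a, a Paneth cell phospholipase, was at 60.4 RPKM in ISC and 11.5 in villus, while 16 of 17 Paneth genes were higher in ISC. Muc2, the main mucin of goblet cells, was at 87.5 RPKM in villus and 106 in ISC and was not called. It is 1 of 6 goblet markers, of which 3 were higher in villus, among them Zg16 at 6105 RPKM in villus and 165 in ISC.

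Related genes could differ in direction. Of 41 families of related genes, 18 had members called in both directions, and in 15 families the member with the highest RPKM differed between the groups. Of all tested genes 30.5% were called higher in villus and 32.3% in ISC. How many families of unrelated genes would hold both calls at these shares was not tested. Pck1 (chr2:172978573-172984754 on build mm9), the cytosolic phosphoenolpyruvate carboxykinase, was at 300.2 RPKM in villus and 5.02 in ISC, while the mitochondrial Pck2 was at 23.5 RPKM in ISC and 2.94 in villus. The hexokinase Hk1 was at 2.12 RPKM in villus and 1.06 in ISC, against Hk2. Slc16a1, the monocarboxylate carrier MCT1, was at 30.6 RPKM in ISC and 19.5 in villus, whereas Slc16a3 (MCT4) was at 36.7 RPKM in villus and 0.395 in ISC and Slc16a5 at 81.4 RPKM in villus and 5.86 in ISC. Of the light chains that pair with a heavy chain to exchange amino acids, Slc7a9 was at 207 RPKM in villus and 5.81 in ISC and Slc7a7 at 165 RPKM in villus and 10.4 in ISC, and Slc7a5 was at 10.4 RPKM in ISC and 0.926 in villus and Slc7a6 at 6.02 RPKM in ISC and 0.865 in villus. The first pair serves absorption in epithelia, and Slc7a5 is a carrier typical of growing cells. Gpx4, which removes lipid peroxides, was at 741 RPKM in villus and 103 in ISC, Gpx1 at 264 RPKM in ISC and 149 in villus, and the gut-specific Gpx2 at 455 RPKM in villus and 335 in ISC. Fabp5 was the 1 fatty acid binding protein higher in ISC, at 13.8 RPKM in ISC and 4.75 in villus.

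Structural families also had members called both ways. Of the plastins, which bundle actin, Pls1 of the microvillus was at 373 RPKM in villus and 28.2 in ISC, and Pls3 at 8.61 RPKM in ISC and 0.642 in villus. Krt20 was at 1662 RPKM in villus and 15.6 in ISC, Krt8 at 2209.5 RPKM in villus and 807 in ISC, and Krt18 at 337 RPKM in ISC and 144 in villus, although keratins 8 and 18 form filaments as partners. Lmna, the lamin of differentiated nuclei, was at 50.0 RPKM in villus and 32.7 in ISC, and Lmnb1 at 48 RPKM in ISC and 9.04 in villus. Tubb5 was at 108 RPKM in ISC and 18.5 in villus, and Tubb2a at 18 RPKM in villus and 10.7 in ISC. Cldn15, a sodium-permeable claudin of the small intestine, was at 435 RPKM in villus and 129 in ISC, and Cldn4 at 152 RPKM in villus and 59.5 in ISC.

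Of the 12 tested Myc and Mad family genes, 4 were higher in each group. Myc was at 40.9 RPKM in ISC and 4.91 in villus, Mycn at 1.97 RPKM in ISC and 0.365 in villus and Mycl1 at 17.6 RPKM in ISC and 2.64 in villus. Mxd1, which competes with Myc for its partner, was at 216 RPKM in villus and 5.08 in ISC, a 42.5-fold difference, Mxi1 was at 28.4 RPKM in villus and 4.26 in ISC, and the shared partner Max at 138 RPKM in villus and 22.7 in ISC. Myc also belongs to the dissociation list. Klf4, a factor of arrested epithelial cells, was at 123 RPKM in villus and 23.3 in ISC, Klf15 at 7.67 RPKM in villus and 1.89 in ISC, Klf10 at 31.3 RPKM in ISC and 9.99 in villus, and the crypt factor Klf5 was at 70.2 RPKM in villus and 79.4 in ISC and was not called.

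**Figure D5:**
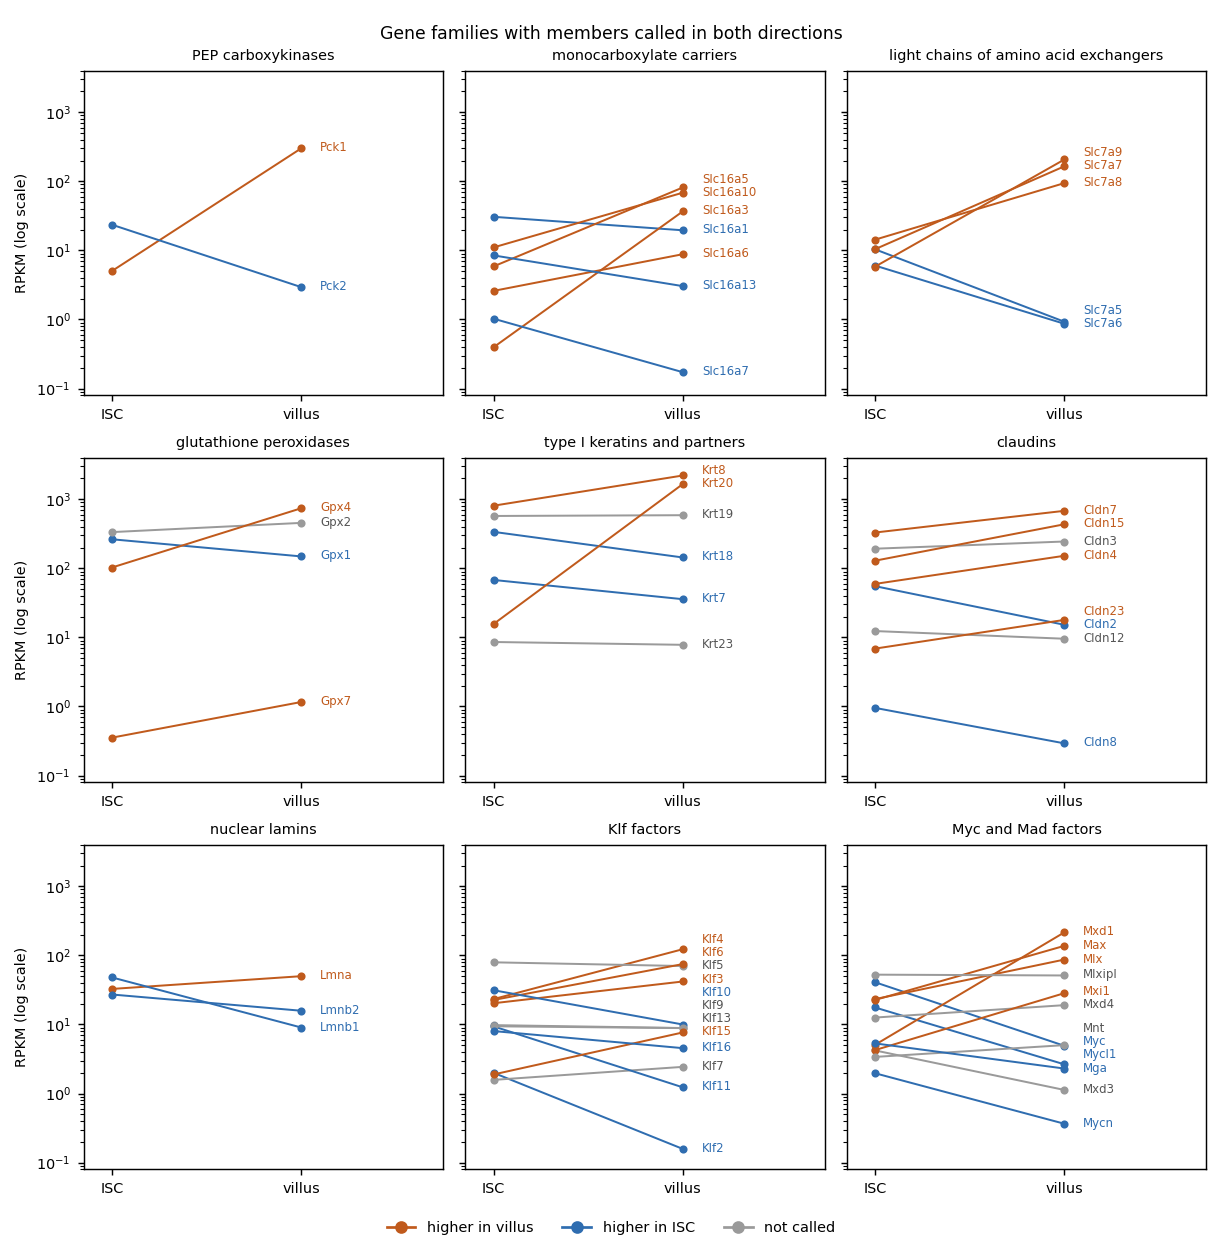
RPKM in ISC and in villus, on a log axis, for every tested member of 9 of the 18 families with members called in both directions, each line joining the 2 values of 1 gene; orange lines were called higher in villus, blue lines higher in ISC and grey lines were not called. Pck1 rises from 5.02 to 300.2 RPKM where Pck2 falls from 23.5 to 2.94 RPKM, and Mxd1 rises from 5.08 to 215.9 RPKM where Myc falls from 40.9 to 4.91 RPKM.

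Few genes were present in only 1 group. With presence set at 1 RPKM or more and absence at less than 0.1 RPKM, 187 tested genes were present in villus only, of which 104 were called, and 71 in ISC only, of which 36 were called. A value listed at 0 can be a failed estimate, so no fold is given for it. Among the highest called ones in villus were Tmprss15, enteropeptidase, which activates trypsin, at 31.3 RPKM in villus and 0.0674 in ISC, Cym, the milk-clotting protease chymosin, at 11.8 RPKM in villus and 0.0908 in ISC, and Cyp1a1, the P450 induced by the aryl hydrocarbon receptor, at 11.6 RPKM in villus and 0.0899 in ISC. Sgk2, a kinase that regulates ion carriers, was at 15.2 RPKM in villus and 0.0704 in ISC. The highest microRNA and small nucleolar RNA entries, Mir5109 and Snord104, were at 567.5 and 244.3 RPKM in villus and listed at 0 in ISC. In ISC, Fzd2, a Wnt receptor, was at 2.21 RPKM in ISC and 0.0904 in villus, Fstl1, a secreted protein that binds BMP ligands, at 5.18 RPKM in ISC and 0.0496 in villus, and Arc, an immediate early gene best known in neurons, at 3.84 RPKM in ISC and 0.0303 in villus.

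The largest difference toward villus was that of Fabp6, at 1678 RPKM in villus and 1.83 in ISC, 918-fold. It belongs by name to the fatty acid binding protein family, and what its product binds was not measured here. Among the 20 largest differences in each direction, several lie outside the functions above. In villus Ada, adenosine deaminase, which protects against adenosine from food and dying cells, was at 826 RPKM in villus and 6.4 in ISC, a 129-fold difference. Bst1, an enzyme that cleaves NAD, was at 211 RPKM in villus and 1.04 in ISC. Spink3, a trypsin inhibitor, was at 3767 RPKM in villus and 35.8 in ISC, and it is also 1 of 2 genes of the pancreas acinar list higher in villus, a list of which 9 of 18 were higher in ISC. In ISC Ifitm3, a membrane protein that blocks viral entry, was at 251 RPKM in ISC and 12.1 in villus, against the direction of 43 of the 51 interferon genes. Igfbp4, which binds insulin-like growth factors, was at 47.6 RPKM in ISC and 2.64 in villus, and Clca4, a secreted protease once taken for a chloride channel, at 600.0 RPKM in ISC and 32.2 in villus. Rmrp and Rpph1, the RNA parts of the enzymes that process ribosomal and transfer RNA precursors, were at 29.6 RPKM in ISC and 0.981 in villus and 98.1 RPKM in ISC and 4.37 in villus.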

How the data were processed

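RNA from 3 villus and 3 ISC libraries was compared; the other 17 samples of the series were not used here. Bowtie, TopHat2 2.0.6, Cufflinks 2.0.1 and Cuffdiff, with build mm9, are named in the submitters' processing notes; which gene annotation was used is not stated there. The deposited table gives the authors' RPKM per group, a test status, a p-value and a q-value per gene. The authors' q-value (at or below 0.05) was the call, since values per library were not analysed here. Differences are log2(RPKM + 1), villus minus ISC, computed with Python 3.11.15, pandas 2.3.3 and numpy 2.4.6, and the script was tested on simulated data. Where reads fall in overlapping genes, 17.0% of tested genes share a locus entry.

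Lists and members were chosen with earlier results of these data known. Named genes were, per list, up to 4 called members with the largest differences in each direction and up to 2 members not called, at 1 RPKM or more in both groups, nearest to a ratio of 1. All members of families called both ways, the 20 largest differences per direction, the 15 highest shared genes, cell type markers and up to 10 genes per direction present in 1 group could also be named. Genes outside this rule are Ptprc and Eed, Apoa4 and Eef1a1, and the genes whose promoters are printed, chosen by motif. A number of genes picked this way are left out of the text. Promoters came from RefSeq. Alternatives covered q, fold, pseudocount, level, scaling, shared loci and small RNA entries.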

Additional observations from a re-analysis of the deposited data

How the results depend on the processing

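No paired analysis was possible because the table holds 1 value per gene and group, and for the same reason no replicate could be left out. Genes called higher in villus numbered 3044 to 3973 and in ISC 3339 to 4201 over the alternatives run. The authors' q was not recomputed under centring or equal summed RPKM, which returned the reported 3973 and 4201. Those settings therefore do not test the calls against scaling. Genes within 1.5-fold numbered 1915 instead of 3390 under the narrower ratio tried. Genes present in villus only numbered 455 with absence set below 0.5 RPKM and 92 with presence at 5 RPKM or more, and in ISC only 503 and 25.

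Scaling to equal summed RPKM was chosen after seeing the data. It shifted every difference of log2(RPKM + 1) by -0.42, and the RPKM values themselves were not rescaled. This turned 6 of 72 list medians negative. Sterol synthesis came to -0.012, desmosomes, hemidesmosomes and keratins to -0.38, and matrix adhesion to -0.38. BMP, TGF-beta and hedgehog came to -0.34, receptor tyrosine kinases and MAPK to -0.40, and mTOR and AMPK to -0.41. Centring gave -0.013 for receptor tyrosine kinases and MAPK and -0.018 for mTOR and AMPK. Without genes sharing a locus entry the receptor tyrosine kinases and MAPK median was -0.049, and at 1 RPKM or more in a group the mTOR and AMPK median was -0.016. At 1 RPKM or more in a group 2 medians also moved, that of retinoid and vitamin handling from 1.32 to 2.63 and that of mesenchyme, endothelium and glia from -0.19 to -1.88. A pseudocount of 0.1 RPKM moved 5 medians and reversed none. The cause was not tested. Depth is unknown, so low values carry no interval.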
